A study of Mus musculus with 8 samples.

Results

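The regions described here are 3130 promoter peaks that the HA antibody ab9110 gave in mouse embryonic stem cells (mESCs) both with EHMT2 present and after dTAG treatment. They were selected on the deposited peak calls. From the 40816 peaks of the DMSO list, those on chromosomes 1 to 19, X and Y were kept (40813 peaks), then those whose summit lay within 1 kb of a GENCODE transcript start (6809 peaks), then those that overlapped no peak of a second HA antibody, C29F4 (6226 peaks). Of these, 3130 overlapped a peak of the dTAG list by at least 1 bp, which is 50.3% of the 6226, and a further 241 promoter peaks called in both treatments were left out because they overlapped a C29F4 peak. Across all DMSO peaks on these chromosomes 18.9% overlapped a dTAG peak. The calls in DMSO and dTAG, the absence of a C29F4 call and the distance to a start therefore chose these regions, and all values of those kinds are given below as description only.

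EHMT2 (G9a) is a histone methyltransferase that deposits H3K9me2, a mark of repressed chromatin, and has no DNA-binding domain of its own. In the cell line used here, EHMT2-dTAG-mcherry on a BL6/129 background, the endogenous protein carries a degron and hemagglutinin (HA) tags, so that an HA antibody can pull it down and the compound dTAG triggers its degradation. Promoters of broadly expressed mammalian genes mostly lie in CpG islands, stretches rich in G, C and the CpG dinucleotide. Such islands are bound by factors such as SP1, NRF1, YY1 and ETS proteins and often hold transcript starts on both strands.

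The series held 8 samples of this line, all collected after 24 h of DMSO or dTAG. The comparison used 1 ab9110 ChIP-seq library from DMSO-treated and 1 from dTAG-treated cells, with the ab9110 input library of dTAG-treated cells (chromatin without pulldown) and the C29F4 list of DMSO-treated cells, called on 2 merged samples, as reference. All groups carry the tagged allele, and no library from untagged cells was analysed here. With 1 library for each treatment there is no replicate check, no test was made, and the 95% intervals below (exact Clopper-Pearson) cover counting error only. The peak lists hold no measure of EHMT2 protein, so the label dTAG could not be checked against them.

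Each peak has a deposited fold enrichment, which is the fragment pileup over the local background at the summit. A pseudocount, the same small number, is added to both terms, so folds are lower than the plain ratio of fragments to background. The fragments themselves were reconstructed from the fold. The mean coverage was 2.11 fragments in the DMSO library and 1.23 in the dTAG library, so the latter was 58.2% as deep. The input library, with 0.978 fragments, was shallower than both. The part of its depth in the number of input peaks and in their overlaps was not tested. The DMSO list held 40816 peaks, the dTAG list 16324 and the input list 2050. Of the 3130 shared promoter peaks, 37 overlapped an input peak (1.18%, 0.834 to 1.63%), close to the 1.16% (0.816 to 1.61%) of the 3096 DMSO promoter peaks that had no dTAG and no C29F4 peak. Their 3130 DMSO peaks met 3030 different dTAG peaks, and 197 of them shared a dTAG peak with another.

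The sequences at the summits of the strongest of these peaks show that they were not all of 1 kind. The 4 with the highest DMSO fold are printed below as 201 bp centred on the summit (mm10, strand of the nearest start), with the letters of any of the 12 motifs searched in capitals.
Tnrc18, chr5:142817783-142817983, minus strand: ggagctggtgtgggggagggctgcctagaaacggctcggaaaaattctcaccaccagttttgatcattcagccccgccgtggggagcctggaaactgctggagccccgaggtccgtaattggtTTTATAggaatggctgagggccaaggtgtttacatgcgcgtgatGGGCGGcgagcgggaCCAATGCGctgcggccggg
Upp1, chr11:9117056-9117256, plus strand: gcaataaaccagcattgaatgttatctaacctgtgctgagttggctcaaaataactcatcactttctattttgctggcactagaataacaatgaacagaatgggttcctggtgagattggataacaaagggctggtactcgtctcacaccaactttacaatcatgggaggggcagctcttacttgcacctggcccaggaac
2900052L18Rik, chr11:120231463-120231663, minus strand: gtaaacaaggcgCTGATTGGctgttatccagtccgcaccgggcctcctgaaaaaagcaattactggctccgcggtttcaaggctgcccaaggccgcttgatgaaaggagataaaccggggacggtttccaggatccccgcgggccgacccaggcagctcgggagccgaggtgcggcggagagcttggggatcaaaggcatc
Usf1, chr1:171410916-171411116, plus strand: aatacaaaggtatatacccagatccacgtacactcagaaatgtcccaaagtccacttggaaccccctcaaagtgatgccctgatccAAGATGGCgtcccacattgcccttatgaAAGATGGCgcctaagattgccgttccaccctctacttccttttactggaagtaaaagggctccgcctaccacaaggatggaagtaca
The window near Tnrc18, which encodes a chromatin protein that binds H3K9me3, held a TATA word, a GC box (GGGCGG) and a CCAAT box of the NFY type (CCAATNNG). It had a GC content of 60.7%. The window near Usf1, which encodes an E-box-binding transcription factor, held the YY1 word AAGATGGC 2 times. The printed 201 bp near Upp1, the gene of uridine phosphorylase, held no motif and had a GC content of 44.3%. The longer Upp1 window of 301 bp, used for the counts below, held an E2F word.

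Summits lay close to starts. The median distance from the DMSO summit to the nearest start was 86 bp (interquartile range 32 to 193 bp), and 55.1% (53.3 to 56.9%) of the summits lay within 100 bp, against 29.8% (28.2 to 31.4%) of the DMSO promoter peaks without a dTAG peak. Distance and the dTAG call both entered the choice, so this difference is a description. The most populated interval of 50 bp was the one just upstream of the start, with 592 summits (18.9%). Fewer summits lay downstream of the start than upstream, 42.3% (40.6 to 44.1%), and in the DMSO promoter peaks without a dTAG peak the downstream share was 48.3% (46.5 to 50.1%). The dTAG summits of the same peaks were spread a little more widely, with 46.6% (44.8 to 48.3%) downstream of the same start and 56.1% (54.4 to 57.9%) at most 100 bp from the DMSO summit. The median distance between both summits was 84 bp.

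**Figure D1:**
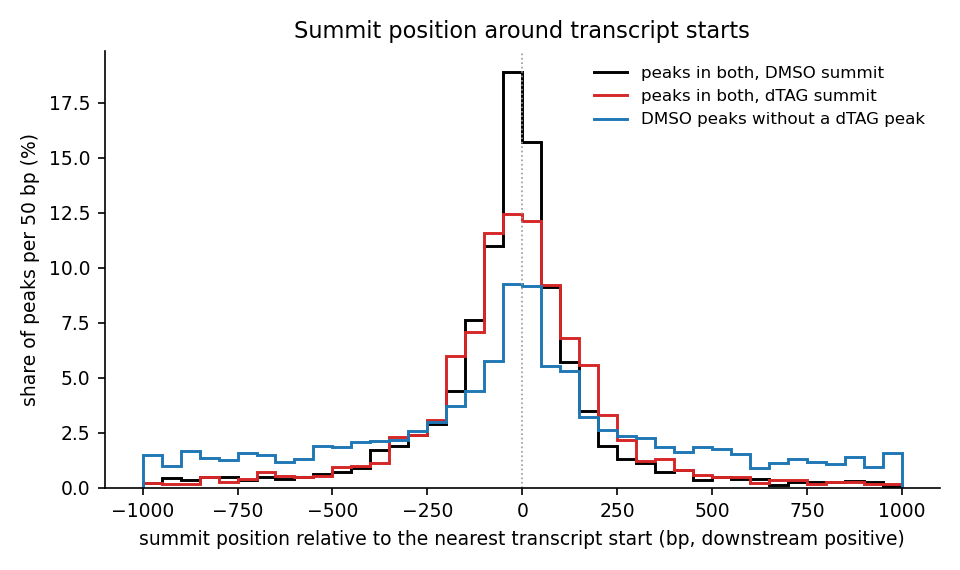
Share of peaks (y axis, percent per 50 bp) by summit position relative to the nearest transcript start (x axis, bp, downstream positive) for the 3130 promoter peaks called in both treatments, at their DMSO and dTAG summits, and for the 3096 DMSO promoter peaks without a dTAG peak. The DMSO summits of the shared peaks are the most concentrated, with 18.9% in the 50 bp upstream of the start, and the peaks without a dTAG peak extend most evenly to 1 kb.

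The nearest gene was protein-coding for 2756 of the 3130 peaks (88.1%, 86.9 to 89.2%), compared with 66.9% (65.2 to 68.5%) of the DMSO promoter peaks without a dTAG peak. Processed pseudogenes were the nearest gene of 0.607% (0.366 to 0.946%) and 8.98% (7.995 to 10.04%), respectively. By position of the summit, 36.8% lay in a noncoding exon or UTR, 33.6% upstream of or between genes, 21.9% in an intron and 7.80% in a coding exon. Starts on both strands within 1 kb were present at 853 peaks (27.3%, 25.7 to 28.8%), of which 715 had divergent starts, and at 10.2% (9.13 to 11.3%) of the peaks without a dTAG peak. An example is the pair Fen1 and Tmem258, a flap endonuclease gene and its neighbour, whose peak summit lay 10 bp upstream of the nearest start. Repeats were sparse: lower-case (repeat-masked) sequence covered 10.9% of the shared promoter peaks, 18.9% of the DMSO promoter peaks without a dTAG peak and 31.1% of the 2252 distal peaks that were called in both treatments. These traits were not particular to the shared peaks. Of the dTAG promoter peaks without a DMSO peak, 88.8% lay nearest a protein-coding gene and 23.6% had starts on both strands. Repeat-masked sequence covered 8.30% of that set.

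The windows around the summits (301 bp) were rich in G and C. Their median GC content was 62.1% (interquartile range 55.8 to 68.1%), with 53.5% for the DMSO promoter peaks without a dTAG peak, 50.2% for the distal peaks in both treatments and 67.1% for the 3853 dTAG promoter peaks without a DMSO peak. The ratio of observed to expected CpG had a median of 0.818, against 0.380 in the first, 0.222 in the second and 0.847 in the third of these sets. Counting a window as CpG-rich when its GC content was at least 55% and the CpG ratio at least 0.6, 2168 of the 3130 windows were CpG-rich (69.3%, 67.6 to 70.9%). The corresponding shares were 26.0% (24.5 to 27.6%), 6.75% (5.75 to 7.87%) and 76.2% (74.8 to 77.5%). By these measures the shared promoter peaks lay between the promoter peaks of the DMSO list alone and those of the dTAG list alone, nearer to the latter, and far from the distal peaks in both treatments. The 293 promoter peaks of the dTAG input list, made without pulldown, had a median GC content of 59.1% and CpG ratio of 0.663. Of their windows 51.2% were CpG-rich. In the 241 promoter peaks with a C29F4 call these values were 55.5%, 0.606 and 35.7%.

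A call in both lists went together with the height of the DMSO summit. Height comes from the same list as the call, so the shares by height are a description. The share of DMSO promoter peaks also called in dTAG was 7.94% (6.52 to 9.54%) for summits of up to 13 fragments and rose over the classes to 87.1% (85.1 to 88.9%) for those above 24 fragments. Within the summits of up to 17 fragments the share also rose with GC content, from 10.4% (7.49 to 14.05%) below 45% GC to 49.4% (44.2 to 54.5%) at 65% or more. Above 17 fragments it was 72.2% (60.9 to 81.7%) below 45% GC, 60.8% (57.0 to 64.4%) from 45 to 55%, 73.8% (71.5 to 76.1%) from 55 to 65% and 80.9% (78.6 to 83.1%) at 65% or more. The relation to GC content was thus steep for low summits and shallow, with no steady rise, for high ones. The part of sequencing depth in these shares was not tested.

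**Figure D2:**
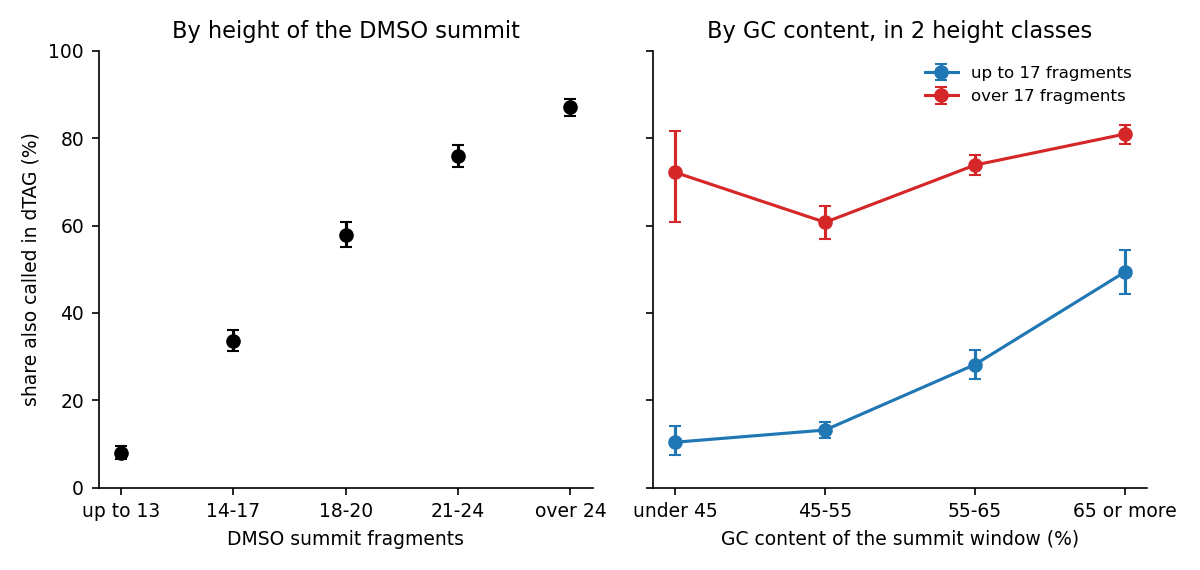
Share of the 6226 DMSO promoter peaks without a C29F4 peak that were also called in dTAG (y axis, percent), by fragments at the DMSO summit (left) and by GC content of the 301 bp window within 2 classes of height (right). Points are shares and bars exact 95% intervals; the share climbs from 7.94% to 87.1% with height, and with GC content it climbs mainly among summits of up to 17 fragments.

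At their DMSO summits the shared promoter peaks held between 9 and 92 fragments, with a median of 22, and at their dTAG summits between 7 and 94, with a median of 18. Divided by the mean coverage of each library, the medians were 10.4 in DMSO and 14.7 in dTAG. The ratio of the scaled values, dTAG over DMSO, had a median of 1.39 and an interquartile range of 1.14 to 1.66, and it ran from 0.450 to 3.86. A ratio of at least 1.5 was found for 1231 peaks (39.3%), beside 22.2% of all DMSO peaks that overlapped a dTAG peak. A ratio at least 1.5 times in the other direction was found for 22 peaks (0.703%), beside 18%. That base also held peaks with a C29F4 call. In the distal peaks in both treatments, which had no such call, these shares were 18.3% and 4.04%. In the 241 promoter peaks with a C29F4 call they were 9.54% and 24.5%. All these peaks had to be called in the shallower dTAG library, which by itself removed low ratios. These counts therefore describe the sets and do not measure an effect of dTAG. Among the 1039 shared promoter peaks above 24 DMSO fragments, where 87.1% were called again, the median ratio was 1.26. The same choice applied to the distal peaks in both treatments, whose median ratio was 1.14 for all 2252 and 0.962 for the 581 above 24 fragments. Without scaling, 595 of the 3130 peaks (19.01%) had more fragments in dTAG than in DMSO. Local background over mean coverage had a median ratio of 0.896 in the shared promoter peaks and 0.910 in the distal ones.

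**Figure D3:**
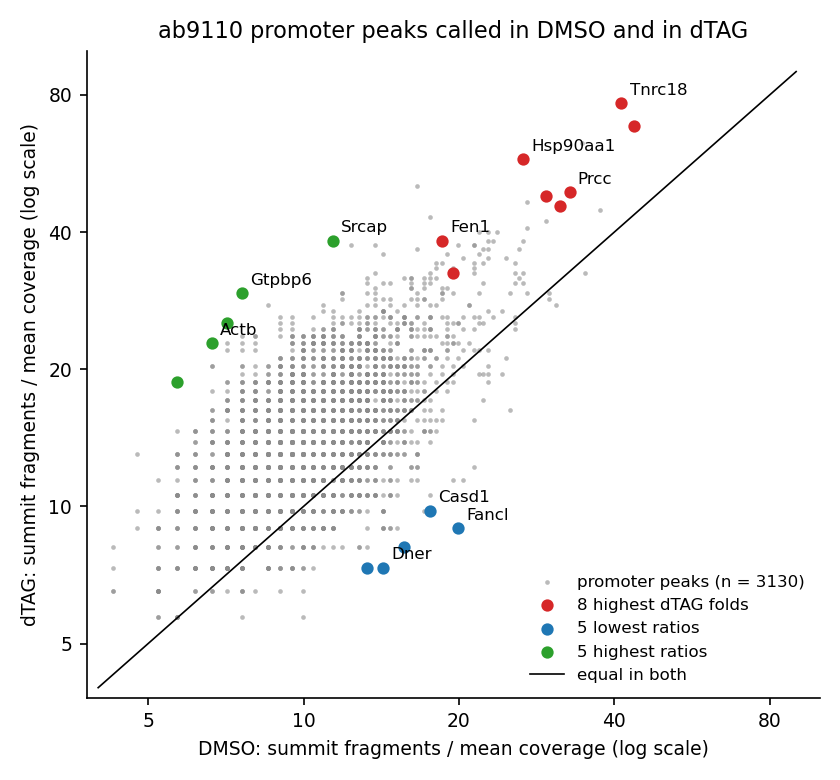
Summit fragments over mean library coverage in DMSO (x axis, log scale) and dTAG (y axis, log scale) for the 3130 promoter peaks called in both treatments, with the line of equal values. Most points lie above the line (median ratio 1.39). Red points are the 8 highest dTAG folds, blue points the 5 lowest and green points the 5 highest ratios.

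The order of the peaks by fragments was partly shared between treatments (Spearman's rho 0.554 over 3130 peaks), and the order by fold enrichment less so (rho 0.193). These are descriptions across peaks of 2 libraries, and both lists share the underlying base composition. The median fold was 3.06 in DMSO (interquartile range 2.66 to 3.71) and 4.35 in dTAG (3.58 to 5.49). Most of the 3130 peaks were thus weak, and the DMSO median lay below the 3.56 of the distal peaks in both treatments and close to the 3.10 of the promoter peaks without a dTAG peak.

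The highest folds belonged to genes of unlike function. The peak 221 bp upstream of a Tnrc18 start (chr5:142817614-142818103) had a fold of 12.8 and 87 fragments in DMSO, and a fold of 29.8 and 94 fragments in dTAG. The peak at Upp1 (chr11:9115241-9118585) had 62 and 59 fragments and folds of 12.7 and 14.3, and that at the noncoding gene 2900052L18Rik (chr11:120230963-120231792) had 92 and 84 fragments and folds of 12.2 and 18.7. All 3 were high in both libraries, and over mean coverage all 3 were higher in dTAG. The Usf1 peak (chr1:171410510-171411681), with 48 fragments in DMSO and 23 in dTAG and folds of 10.8 and 6.76, went the other way. At Usf1 the dTAG summit lay 266 bp from the DMSO summit. The next by DMSO fold was the Prune2 peak, with 33 and 10 fragments and folds of 9.31 and 3.78. It was the only one of the 12 highest that also ranked among the 5 lowest ratios. The others of the 12 lay at Prcc (folds 8.997 and 19.9), Phf12 (8.97 and 10.3), N4bp2l2 (8.93 and 8.72), Psmb5 (8.79 and 6.77), Calcoco1 (8.29 and 11.0), Tpgs1 (8.27 and 9.31) and Ddx23 (8.26 and 3.55). Phf12 encodes a PHD finger subunit of a Sin3 corepressor complex, Psmb5 a catalytic proteasome subunit, Calcoco1 an autophagy receptor and Ddx23 a spliceosomal helicase.

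Among the 8 highest folds in dTAG, Tnrc18, Prcc, 2900052L18Rik and Upp1 were joined by 4 others. Hsp90aa1, the gene of an inducible HSP90 chaperone, had 56 fragments in DMSO and 71 in dTAG with folds of 6.69 and 19.7, and its window had a GC content of 70.1%. Ttc30b, an intraflagellar transport gene, had 41 and 40 fragments and folds of 4.63 and 15.6. Unk, which encodes an RNA-binding zinc finger protein, had 66 and 56 fragments and folds of 7.39 and 13.6, and Fen1 had 39 and 47 fragments and folds of 6.82 and 13.5. At Ttc30b the unscaled fragments hardly differed and the unscaled local background did, with 8.07 fragments in DMSO and 1.63 in dTAG. The folds thus differed mainly in the background term. Over mean coverage the Ttc30b summit had 19.5 in DMSO and 32.6 in dTAG (ratio 1.68).

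The largest scaled ratio was that of Gtpbp6, a mitochondrial GTPase gene, with 16 fragments in DMSO and 36 in dTAG (ratio 3.86). Its dTAG summit lay 1006 bp from the DMSO summit and only 45 bp of the peaks overlapped, so both values did not describe the same position. The summits were also far apart at Mir1894 (15 and 31 fragments, ratio 3.55, dTAG summit at -1228 bp from the DMSO summit), Adi1 (12 and 23 fragments, ratio 3.29, at 762 bp) and Actb (14 and 28 fragments, ratio 3.43, at -492 bp). The one with summits at nearly 1 position was Srcap, the gene of a chromatin remodeller that deposits H2A.Z, with 24 and 47 fragments (ratio 3.36, at -9 bp). The lowest ratio was that of Fancl, which encodes the ubiquitin ligase of the Fanconi anemia pathway, with 42 fragments in DMSO and 11 in dTAG (ratio 0.450). Next came Dner, a Notch ligand gene (30 and 9 fragments, 0.515), Prune2 (0.520), the pseudogene Gm5700 (28 and 9 fragments, 0.552) and Casd1, a sialic acid O-acetyltransferase gene (37 and 12 fragments, 0.557). At Dner the dTAG summit lay at -639 bp from the DMSO summit, so here too the values did not describe the same position. It lay at -164 bp at Prune2, 79 bp at Fancl, 87 bp at Gm5700 and -97 bp at Casd1.

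The 2 summits farthest from a start lay 996 bp (Mxd3) and 994 bp (Dpm1) away, and the first peaks outside lay 1004 bp away, near Gm31763 and Ipmk. The smallest overlaps between DMSO and dTAG peaks were 3 bp (Hnrnpa0) and 5 bp (Jpt1), and DMSO peaks at Top1mt and Rab10os ended 0 and 1 bp short of a dTAG peak. The lowest DMSO −log10 q values were 1.31 (Prmt7) and 1.32 (Ap1s3), and the lowest dTAG values were 1.31 (Csrp2 and Trmt10b).

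Motifs were counted as words in the 301 bp window on both strands, and no word contained another, although their matches may overlap. The comparison with all promoters used windows of the same length centred on the 93462 starts of protein-coding genes. The GC box GGGCGG was found in 1838 of the 3130 windows (58.7%, 57.0 to 60.5%) and in 38.9% of the starts. The NRF1 word TGCGCA was in 21.9% (20.4 to 23.3%) against 8.03%, the ETS word CCGGAAG in 19.8% (18.5 to 21.3%) against 10.0%, the E-box CACGTG in 15.2% (13.97 to 16.5%) against 6.57% and the YY1 word in 9.46% (8.45 to 10.5%) against 3.63%. The cAMP response element TGACGTCA was in 3.93% against 1.75%, the E2F word TTCCCGC in 10.7% against 5.50%, the ZFP143 word ACTACAAT in 2.33% against 0.639%, the palindrome CTCGCGAG in 1.92% against 0.963% and the CTCF word AGGGGGC in 12.9% against 10.5%. TATAAA was rarer than at all starts (4.15% against 9.85%), and so was the NFY word (8.95% against 12.2%). At least 1 of the ETS, NRF1, YY1, CRE, CTCGCGAG, ZFP143 and E-box words was in 1728 windows (55.2%), and at least 2 different ones in 517 (16.5%).

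Since CpG-rich sequence alone holds more of these words, the shares were also taken within CpG-rich windows. Of the 2168 CpG-rich shared promoter peaks, 27.4% (25.5 to 29.3%) held the NRF1 word, against 15.3% (12.9 to 17.95%) of the 805 CpG-rich DMSO promoter peaks without a dTAG peak, 16.3% (15.0 to 17.7%) of the 2936 CpG-rich dTAG promoter peaks without a DMSO peak and 15.2% (14.8 to 15.6%) of the 36799 CpG-rich protein-coding starts. The E-box was in 17.6% (16.0 to 19.2%), with 12.9%, 11.1% and 9.58% in the other sets. The YY1 word was in 10.8% (9.52 to 12.2%), with 6.21%, 4.53% and 6.06%, and the ETS word in 23.9% (22.1 to 25.7%), with 18.3%, 16.1% and 19.5%. CRE was in 4.89% (4.02 to 5.88%), with 2.36%, 2.66% and 3.37%. For these 5 words the interval of the shared peaks lay above those of the other 3 sets. The GC box turned over, with 70.7% (68.7 to 72.6%) in the shared peaks and 76.1% (75.6 to 76.5%) at CpG-rich starts. So did the CTCF word, with 14.8% (13.3 to 16.3%) against 17.02% (16.6 to 17.4%), and the NFY word was rarer here too, with 8.30% (7.18 to 9.54%) against 14.6% (14.3 to 14.98%). The intervals of the palindrome, the E2F and the TATA words overlapped those of CpG-rich starts. The ZFP143 word was in 1.71% (1.20 to 2.34%) of the CpG-rich shared peaks, against 0.557% (0.484 to 0.639%) of CpG-rich starts. In the CpG-rich DMSO and dTAG promoter peaks called in only that list it was in 0.870% (0.350 to 1.78%) and 0.579% (0.338 to 0.925%). The shared peaks that were not CpG-rich held it in 3.74% (2.63 to 5.14%). The windows of peaks are centred on summits and those of starts on the start, which can move such shares. The NRF1 word lay within 50 bp of the summit in 51.8% (47.9 to 55.6%) of the windows that held it and the ETS word in 37.5% (33.7 to 41.5%). The 241 promoter peaks that C29F4 also called held the YY1 word in 20.3% (15.4 to 26.0%), more than the shared peaks without a C29F4 call.

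**Figure D4:**
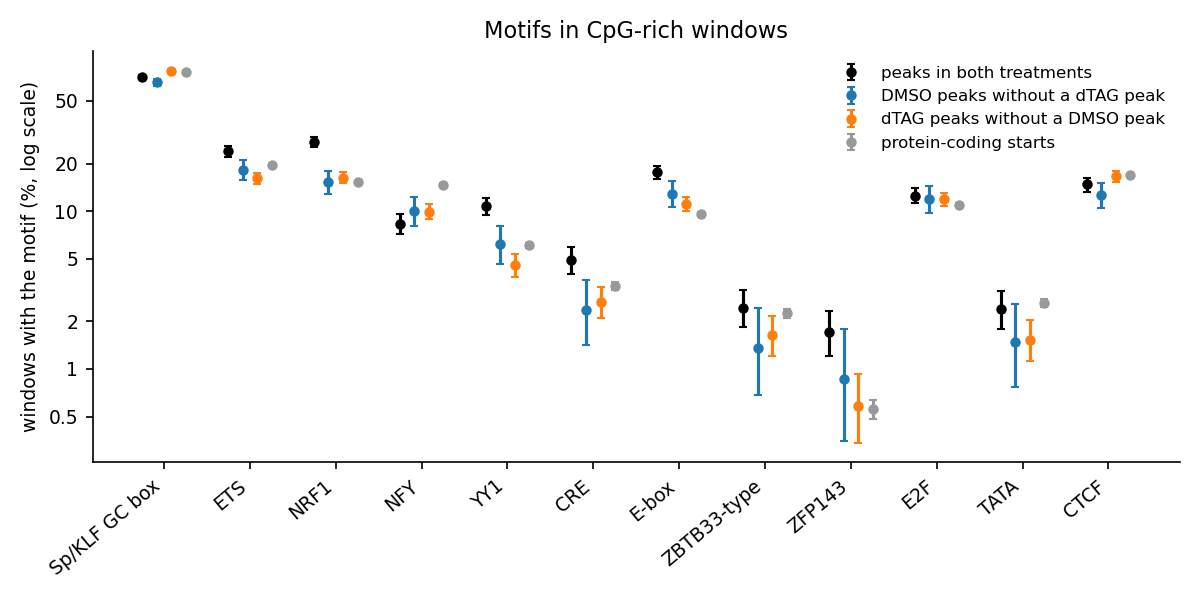
Share of CpG-rich 301 bp windows that hold each of 12 motif words (y axis, percent, log scale) in promoter peaks called in both treatments, DMSO promoter peaks without a dTAG peak, dTAG promoter peaks without a DMSO peak and windows on protein-coding starts. Bars are exact 95% intervals; NRF1, YY1, ETS and E-box words are most frequent in the shared peaks (27.4%, 10.8%, 23.9% and 17.6%), and the GC box, NFY and CTCF words are less frequent there than at starts.

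Windows with the words in place are printed for peaks that held YY1, NRF1, CRE and the palindrome CTCGCGAG, in this order, within 50 bp of the summit and had no UTR bases. These 4 were chosen after the values were seen. The Usf1 window printed above also held YY1 within 50 bp of its summit, at a higher DMSO fold (10.8) than Mcmbp (6.67).
Mcmbp, chr7:128740532-128740732, minus strand: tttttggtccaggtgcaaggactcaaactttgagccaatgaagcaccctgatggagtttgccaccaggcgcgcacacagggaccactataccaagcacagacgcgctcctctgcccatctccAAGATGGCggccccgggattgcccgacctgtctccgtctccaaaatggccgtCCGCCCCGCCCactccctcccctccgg
1700016H03Rik, chr19:45363528-45363728, minus strand: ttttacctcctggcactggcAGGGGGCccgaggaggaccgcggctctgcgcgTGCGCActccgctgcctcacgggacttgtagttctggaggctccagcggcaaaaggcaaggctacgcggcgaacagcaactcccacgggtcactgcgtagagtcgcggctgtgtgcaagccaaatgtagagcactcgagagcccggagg
Snhg15, chr11:6528740-6528940, minus strand: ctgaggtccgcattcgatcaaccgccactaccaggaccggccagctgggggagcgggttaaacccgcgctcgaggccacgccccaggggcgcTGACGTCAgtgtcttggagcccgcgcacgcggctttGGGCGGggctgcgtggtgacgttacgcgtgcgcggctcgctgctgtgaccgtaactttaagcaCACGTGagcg
Tab3, chrX:85573689-85573889, plus strand: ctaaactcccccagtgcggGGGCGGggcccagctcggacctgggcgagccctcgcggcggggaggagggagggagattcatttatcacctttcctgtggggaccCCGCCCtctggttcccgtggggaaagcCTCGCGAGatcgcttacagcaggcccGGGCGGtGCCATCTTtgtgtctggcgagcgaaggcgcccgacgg
The Mcmbp window, near the gene of a replication helicase-binding protein (folds 6.67 in DMSO and 5.49 in dTAG), held YY1 beside 2 GC boxes that overlapped by their last and first letters. The window at 1700016H03Rik, an antisense noncoding gene (5.42 and 5.57), held the NRF1 word and AGGGGGC. The window at the noncoding host gene Snhg15 (3.29 and 4.07) held CRE, a GC box and an E-box, and that at Tab3, which encodes an adaptor of TAK1 kinase signaling (4.01 and 4.94), held 3 GC boxes, CTCGCGAG and YY1. A match is a description of letters and not a binding site.

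Of 21938 protein-coding genes, 3256 had a start within 1 kb of a shared promoter peak, which is 14.8%, and among the 12260 genes with a CpG-rich start the share was 23.9% (23.2 to 24.7%). Of the 9678 other genes, 322 (3.33%, 2.98 to 3.70%) had one. In 19 gene lists the counts were read against these shares. Lists of basic cell functions had shares above both. Clustered histone genes had the highest share, 40 of 67 genes (59.7%, 47.0 to 71.5%), and 22 of the 30 with a CpG-rich start. RNA polymerase and Mediator subunits followed with 28 of 58 (48.3%, 35.0 to 61.8%), rRNA processing factors with 12 of 26 (46.2%), mitochondrial ribosomal proteins with 34 of 78 (43.6%), respiratory chain subunits with 36 of 90 (40%), cytosolic ribosomal proteins with 34 of 86 (39.5%), splicing factors and hnRNPs with 20 of 52 (38.5%), tRNA synthetases with 13 of 34 (38.2%), translation initiation factors with 20 of 55 (36.4%) and proteasome subunits with 16 of 50 (32.0%). Of these, the intervals of the tRNA synthetase, initiation factor and proteasome lists included the share of genes with a CpG-rich start.

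The peaks named here are those with the highest DMSO folds of each list. Among histone genes, Hist1h4i had 30 fragments in DMSO and 19 in dTAG (folds 5.05 and 3.28), Hist1h4f 21 and 18 (4.71 and 3.48) and Hist1h3a 24 and 22 (4.63 and 7.49). Over the 35 peaks of that list the median scaled ratio was 1.55, against 1.39 for all protein-coding genes. The ribosomal protein genes Fau and Rps20 had folds of 4.89 and 4.22 in DMSO and 6.82 and 4.08 in dTAG, and Rpl13a had 4.50 and 4.93 with a scaled ratio of 0.648. At Rpl13a the dTAG summit lay at -489 bp from the DMSO summit. Polr2a, the gene of the largest subunit of RNA polymerase II, had 30 and 23 fragments (4.08 and 7.13), Med27 had 21 and 17 (4.07 and 3.29) and Med25 had 30 and 27 (3.91 and 6.68). Splicing factor genes showed the highest median ratio of the lists with 10 or more peaks, 1.83 over 26 peaks, and tRNA synthetases the lowest, 1.18 over 13. Hnrnpl (4.89 and 5.05), Hnrnpa1 (4.80 and 5.27) and Hnrnpm (4.26 and 4.20) were the splicing genes with the highest DMSO folds.

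Shared bidirectional promoters placed 1 peak in several lists. The peak between Ndufb5, a complex I subunit gene, and Mrpl47 (folds 6.48 and 5.49) and that between Fau and Mrpl49 each counted in a pair of lists, and the one at Atp5j (4.89 and 8.73) also lay at Gabpa, the gene of an ETS factor. In all, 495 peaks had starts of at least 2 protein-coding genes within 1 kb, and 156 genes had at least 2 peaks. Mrpl19 (5.37 and 5.69), Ndufa12 (5.89 and 5.28), Psmd7 (4.65 and 3.49), Psmd14 (4.38 and 3.38), Eif3e (5.34 and 5.76), Eif2s2 (4.08 and 4.35), Sars (4.68 and 3.34), Sars2 (4.21 and 5.94), Nop10 (4.61 and 3.56) and Nop14 (4.37 and 3.66) were the other leading peaks. So were those at Map4k1, whose start lies beside Eif3k (5.83 and 4.14), and A430105J06Rik beside Rrp15 (5.56 and 3.94).

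**Figure D5:**
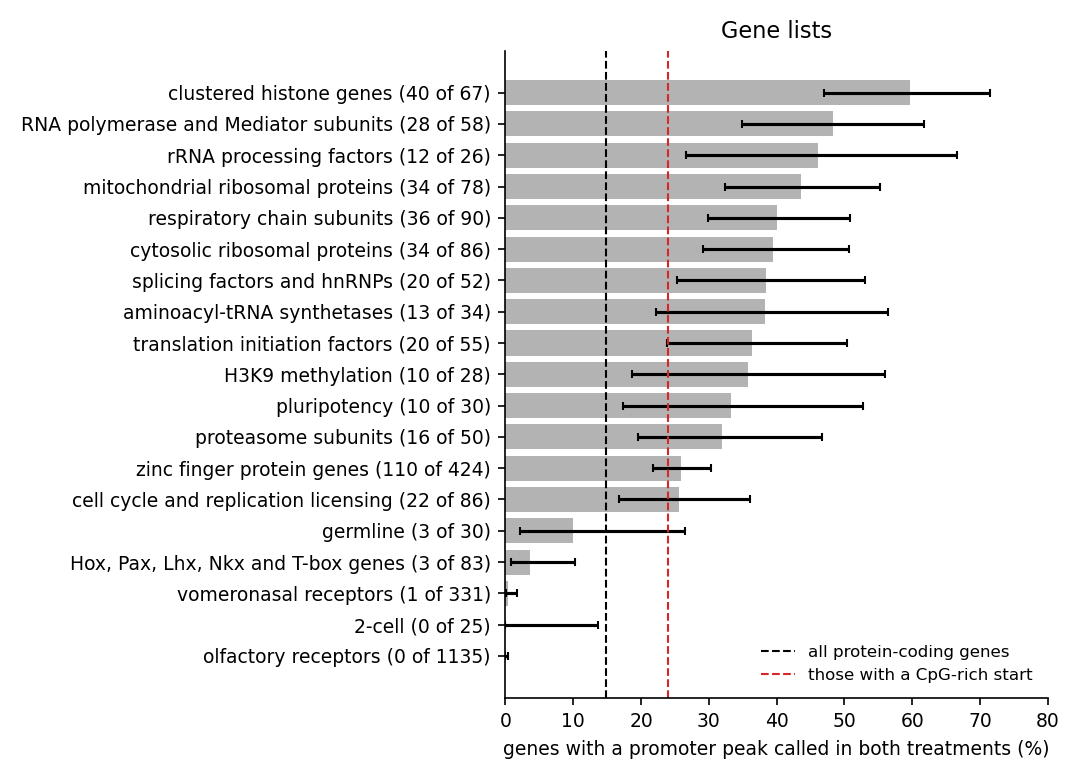
Share of the genes of each of 19 lists with a promoter peak called in both treatments (x axis, percent; bars are shares and whiskers exact 95% intervals), with dashed lines for all protein-coding genes (14.8%) and those with a CpG-rich start (23.9%). Clustered histone genes are highest (59.7%), and olfactory receptor and 2-cell genes have none.

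The developmental and chemosensory receptor lists had shares below that of all protein-coding genes. Of 83 Hox, Pax, Lhx, Nkx and T-box genes, which direct body patterning and of which 56 have a CpG-rich start, 3 had a shared peak (3.61%, 0.752 to 10.2%). These were Tbx6 (folds 4.56 and 4.26), Lhx3 (3.12 and 3.27) and Tbx3. None of 1135 olfactory receptor genes had one (0 to 0.324%), although 30 had a DMSO promoter peak and 10 a dTAG promoter peak, and 1 of 331 vomeronasal receptor genes did. That one, Vmn1r4 (4.45 and 3.94), has a start within 1 kb of the Nt5c3 promoter. Of 25 genes of the 2-cell stage, such as the Zscan4 and Obox families, none had a shared peak (0 to 13.7%), and 2 had a DMSO promoter peak. None of these 25 genes has a CpG-rich start, and the interval includes the 3.33% of all genes without one. The germline list, of which 29 of 30 genes have a CpG-rich start, gave 3 genes (10.0%, 2.11 to 26.5%), an interval that includes the shares of all protein-coding genes and of those with a CpG-rich start. They were Tex14, with 2 peaks, of which 1 also lay at Rad51c (2.77 and 3.79) and the other at the snRNA gene Gm22068 (3.95 and 6.83), Zcwpw1 beside Mepce (4.85 and 7.35) and Stag3 beside Gpc2 (2.40 and 6.48). At each of them another gene's start lay within 1 kb of the summit. Zinc finger protein genes (110 of 424, 25.9%, 21.8 to 30.4%) and cell cycle genes (22 of 86, 25.6%, 16.8 to 36.1%) were above all protein-coding genes and near those with a CpG-rich start. Zscan22 (6.07 and 9.31), Zfp110 (5.88 and 4.35) and Zfp558 (5.12 and 5.04) led the former, and Cdk5 (4.66 and 5.73), Cdc45 beside Ufd1 (4.63 and 8.40) and Cdk11b with the noncoding Gm16023 (4.26 and 5.80) the latter.

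Of 30 pluripotency genes, which keep mESCs undifferentiated, 10 had a shared peak (33.3%, 17.3 to 52.8%). Only 5 of these 10 have a CpG-rich start, of 19 such genes in the list (26.3%). The rest of the 10 lack one, and over all protein-coding genes without a CpG-rich start 3.33% had a shared peak. The interval of this list lay above the 14.8% of all protein-coding genes and included the 23.9% of those with a CpG-rich start. Tet1, which encodes a 5-methylcytosine dioxygenase, had 2 peaks, with 27 fragments in DMSO and 16 in dTAG at the one near its start (folds 5.16 and 5.40) and 24 and 12 at the other (4.08 and 3.10). Esrrb, an orphan nuclear receptor gene, had 26 and 24 fragments (4.85 and 7.04), Zfp42, the gene of the marker REX1, 25 and 19 (4.12 and 3.28), and Nanog 22 and 16 (3.92 and 4.46). Scaled to coverage, the Nanog and Zfp42 peaks had ratios of 1.25 and 1.31, and Tet1 1.02 at the start. Dppa4 had 18 and 9 fragments (3.52 and 3.43), Lin28a 20 and 13 (3.25 and 3.34), Tbx3 18 and 18 (3.01 and 6.50), Stat3 15 and 20 (2.80 and 5.30), Jarid2 31 and 28 (2.67 and 6.01) and Klf2 23 and 23 (2.65 and 3.56). Prdm14, Nr5a2, Dnmt3l, Mycn, Pou5f1, Dppa5a and Nr0b1 had a DMSO promoter peak and none in dTAG, and Sox2, Klf4, Klf5, Sall4 and Fgf4 had a dTAG promoter peak and none in DMSO.

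Genes of the H3K9 methylation machinery all have a CpG-rich start, and 10 of 28 had a shared peak (35.7%, 18.6 to 55.9%). This interval included the 23.9% of all protein-coding genes with a CpG-rich start. Ehmt1, which encodes the partner of EHMT2 in the methyltransferase complex, had a peak 46 bp upstream of its start with 22 fragments in DMSO and 28 in dTAG (folds 3.13 and 7.32, scaled ratio 2.19). Wiz, whose zinc finger protein binds that complex, had 2 peaks with 15 and 8 fragments (4.21 and 3.67) and 21 and 20 (2.89 and 5.91). The HP1 genes were Cbx1, with 23 and 16 fragments (2.68 and 2.79), and Cbx5, which shares its start region with Hnrnpa1 (30 and 23 fragments). Adnp, the gene of an HP1-binding factor, had 21 and 22 fragments (4.06 and 6.03), Atf7ip, beside Gm44140, 29 and 15 (4.35 and 5.21), and Hdac2 26 and 16 (3.24 and 4.06). The demethylase genes Kdm3b (16 and 15 fragments, 2.52 and 3.31) and Kdm4c (21 and 23, 2.64 and 5.27) and the DNA methyltransferase gene Dnmt1 (23 and 20, 2.65 and 4.77) completed the list. Ehmt2 itself had a dTAG promoter peak and no DMSO promoter peak, as did Cdyl, Mphosph8, Uhrf1, Kdm4b, Suv39h2, Kdm1a, Zfp644 and Cbx3. Setdb1, Zfp462, Hdac1, Chd4 and Trim28 had a DMSO promoter peak and none in dTAG. Over the 11 peaks of this list the median scaled ratio was 1.49.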

How the data were processed

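ChIP-seq peak lists of EHMT2-dTAG mESCs were compared, namely ab9110 DMSO, ab9110 dTAG, ab9110 dTAG input and C29F4 DMSO (2 samples merged by the authors). The remaining libraries were not analysed here as separate lists. The authors aligned reads to mm10 with STAR, placing multimapping reads at 1 location each, discarded duplicates (Picard) and called peaks on fragments (MACS2) (versions 2.7.10, 2.26.0 and 2.2.6 in the submitters' processing notes). The highest q-value in either ab9110 list was 0.049. Whether input entered the calls is not given in the sources used here. Multimapping reads make peaks at near-identical gene copies uncertain.

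The deposited fold enrichment is a ratio of pileup to background, each with the pseudocount added. The −log10 of p and of q, also deposited, are those at each summit. The deposited score was not used. Whole-number fragments and background were solved from fold and p-value, within 0.001 for 100% of the peaks. The lowest background gave the mean coverage. This assumes that MACS2 left the ChIP pileup unscaled.

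Regions and lists were chosen with earlier results of these data known. Starts came from GENCODE M21 (GRCm38), sequence from the RefSeq copy of that assembly. The nearest start named a peak, and a list gene counted where any start lay within 1 kb of a summit. Each DMSO peak was paired with the dTAG peak of largest overlap. No printed window lies on chromosome 18 or holds annotated UTR bases. Named were the 12 highest DMSO and 8 highest dTAG folds, the 5 highest and 5 lowest ratios, all peaks of the pluripotency, H3K9, germline and 2-cell lists, 3 per other list, and those at the limits; 1 of these peaks is not reported here. The classes of fragments and GC content and the counts within CpG-rich windows were set after the data had been seen. Alternatives were stricter q-values, other overlaps, distances, starts and windows, C29F4 peaks kept, and unscaled fragments. Scripts, tested on simulated data, used Python 3.11.15, pandas 2.3.3, scipy 1.17.1, pysam 0.24.0 and bedtools 2.31.1.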

Additional observations from a re-analysis of the deposited data

How the results depend on the processing

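Of 72 recomputed values 47 stayed within their limits (1.5 times for counts, the interquartile range for medians, the interval for shares) and 25 moved. The number of peaks fell to 1320 and of genes to 1433 at a q-value under 0.001, where the share also called in dTAG was 52.07%, the downstream share 38.26% and that with starts on both strands 29.09%. At a q-value under 0.01 the share also called was 52.95%. With 50% overlap it was 44.92%, CpG-rich windows 72.54% and soft-masked bases 9.794%. With summits at most 250 bp apart it was 41.28%, CpG-rich windows 74.36% and protein-coding nearest genes 89.53%. With starts within 500 bp these were 56.29%, 72.76% and 89.33%, with 23.28% on both strands and 9.82% soft-masked. With starts of protein-coding genes only, 57.53% were also called, 72.45% CpG-rich, 40.08% downstream, 15.36% on both strands and 9.691% soft-masked. With C29F4 peaks kept, 66.86% were CpG-rich and 12.62% of bases soft-masked. Without scaling, the median ratio was 0.8095, so its side of 1 rests on the coverage estimate. The cause of the other moves was not tested.

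No paired analysis was possible because every result comes from no test: each ab9110 treatment has 1 library, and the C29F4 samples 4 and 5 were merged. For the same reason no replicate was left out. The dTAG library had 58.2% of the DMSO coverage, and 7.94% of the DMSO promoter summits of up to 13 fragments were also called in it. The part of depth in this was not tested.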

Other observations

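Genes of short noncoding RNAs made up a small group of the shared promoter peaks, named here after their values were seen. The nearest gene was an snRNA gene for 29 peaks (0.927%) and a miRNA gene for 23 (0.735%). It was a snoRNA gene for 10 (0.319%) and a gene of the class misc_RNA for 9 (0.288%). In the DMSO promoter peaks without a dTAG peak these shares were 0.840%, 1.45%, 0.937% and 0.517%. The snRNA shares were thus alike, and those of the other classes were lower in the shared peaks. Rn7sk, the gene of the RNA that holds the elongation factor P-TEFb inactive, had folds of 7.54 in DMSO and 5.59 in dTAG. Rmrp, the RNA of the mitochondrial RNA processing endonuclease, had 2.62 and 4.51, Scarna2 had 3.35 and 4.91, Snord118 (U8) had 5.24 and 4.77, Rnu12 had 2.73 and 4.79 and Rnu7 had 2.85 and 4.23. The peaks at snRNA genes had a median fold of 3.41 in DMSO and 5.84 in dTAG, a median scaled ratio of 1.72 and a median GC content of 45.8%, and 5 of the 29 windows were CpG-rich. The snRNA peaks at Gm24407 and Gm24265 were paired with the same dTAG peak, which therefore entered these medians more than once. Of the snRNA peaks 1 overlapped an input peak, as did 1 of the snoRNA peaks, Rnu3b4. Genes of U1, U2 and U3 RNA occur in near-identical copies (Rnu1b1, Rnu1b2, Rnu1b6, Rnu2-10, Rnu3b1 to Rnu3b4), and which copy gave the reads is uncertain.

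The peaks were spread over the chromosomes, except the sex chromosomes. The share of protein-coding genes with a shared peak ran from 11.4% (chromosome 14) to 21.9% (chromosome 8) on the autosomes, was 6.86% on X, with 70 peaks, and 0 of 183 genes on Y. The 37 shared peaks over an input peak had a median scaled ratio of 1.62 and a median GC content of 63.1%, against 1.39 and 62.1% for the other 3093. The strongest of the 37 lay at Hspd1, the gene of the mitochondrial chaperonin HSP60, with folds of 8.16 and 10.6.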
